A study of Mus musculus with 7 samples.

Results

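The adrenal gland was compared across birth, from the embryo at E18.5 to the newborn at P1 (postnatal day 1), in whole glands of the inbred mouse strain C57BL/6J. Of the 7 RNA-seq libraries of the series, 3 hold this step: 1 library from a pool of 40 glands of embryos whose sex was not determined, 1 from 16 glands of P1 males, and 1 from 22 glands of P1 females. The other 4 were made from male and female glands at 2 weeks (6 glands each) and 12 weeks (4 glands each) and are used for the spread between pools and as later levels. The labels give no mutation, transgene or treatment for any group, so the groups share the strain and the tissue and differ in age and in the labelled sex. A gene entered the comparison when its mean over the 7 libraries was at least 10 normalized counts, which are reads divided by 1 size factor per library. Among the 35976 deposited symbols, 16720 did, and 12477 of them lay on the same side of E18.5 in both P1 libraries, 6771 above (40.5% of those tested) and 5706 below (34.1%). The other genes went opposite ways in the 2 P1 libraries (4229) or did not differ in 1 of them (14).

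Birth ends the supply of glucose, oxygen and cholesterol through the placenta, and the newborn depends on its own glucose production, on fat from milk, and on glucocorticoid from its own adrenal cortex. The cortex makes corticosteroids from cholesterol that it takes up from lipoproteins or synthesises, and pituitary ACTH drives this through cAMP. When cells hold enough sterol, the SREBP transcription factors stay inactive, and the genes of cholesterol synthesis and uptake are expressed at lower levels. The medulla consists of chromaffin cells, which store and release catecholamines. In the mouse a fetal zone of the cortex persists after birth as the X-zone, next to the medulla.

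All 3 libraries carried the defining cortical genes Star, Cyp11a1 and Cyp11b1 and the medullary genes Th and Chga at high levels. Reads in genes were 22886004 in the E18.5 library, 23551289 in P1 male and 18470043 in P1 female, and 15184210 to 22176281 in the later libraries. Transcripts of other tissues were present as well. The summed normalized counts of 10 liver markers were 390362 before birth, 490322 in P1 male and 325481 in P1 female, those of 14 skeletal muscle markers 125128, 219940 and 367354, those of 11 kidney markers 1551, 10962 and 2938, and those of 14 exocrine pancreas markers 888, 10741 and 609. The library labelled P1 female held 1273 normalized counts of 4 Y-linked genes, against 6135 in P1 male and 4250 at E18.5. The female pools at 2 and 12 weeks held 4.41 and 2.26. Xist, the X-linked RNA of female cells, was chosen after its values were seen. It had 9782 at E18.5, 22.1 in P1 male and 8103 in P1 female. E18.5 and P1 female thus held both Y-linked and Xist transcripts, and P1 female is named throughout by its label only. Because the libraries come from whole glands, more cells of a type and more RNA per cell cannot be told apart. Embryonic age rests on 1 pool, and nothing in the labels says that the P1 pools are repeats of one population, since they carry different sex labels.

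The direction and size of each difference were compared between the 2 P1 libraries first. Where 3 values follow a gene, they are those of E18.5, P1 male and P1 female in that order. Differences are P1 minus E18.5 on the scale of log2(normalized count + 1), with a median over all tested genes of 0.03 in P1 male and 0.04 in P1 female. A difference of at least 2-fold in the same direction in both P1 libraries was found for 861 genes (5.15%), 487 higher at P1 (2.91%) and 374 lower (2.24%). In 405 of the higher and 341 of the lower genes the smaller of the 2 differences exceeded the gap between the P1 libraries themselves. This held for 6742 of the 12477 genes with the same direction in both. Genes with opposite directions cannot meet it by definition, and the 6742 are 40.3% of all tested genes. For single pairs of libraries, 1405 genes lay at least 2-fold from E18.5 in P1 male and 2200 in P1 female. Between P1 male and P1 female, 1134 genes lay at least 2-fold apart. The gene just inside the 2-fold limit was 0610040J01Rik, whose smaller difference was 1.00025, and the gene just outside was Tnnc1, at 0.99975. The list counts below are to be read beside the shares of all tested genes. These are 40.5% higher and 34.1% lower in both P1 libraries, and 2.91% and 2.24% at least 2-fold higher and lower.

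**Figure D1:**
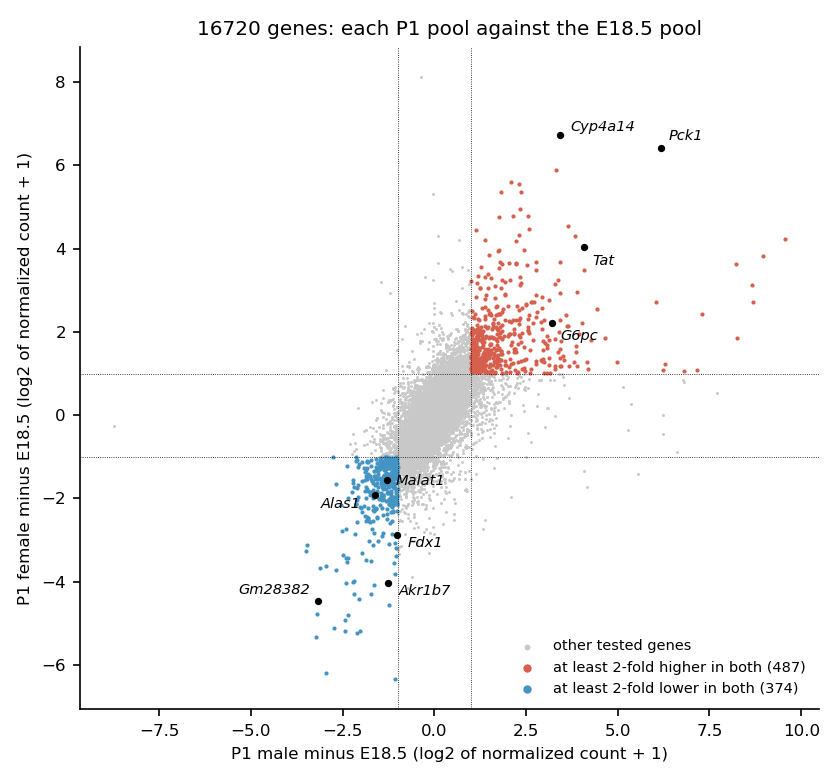
Difference of P1 male (horizontal axis) and P1 female (vertical axis) from E18.5 for each of 16720 genes, in log2(normalized count + 1); dotted lines mark 2-fold. The 487 genes at least 2-fold higher in both and the 374 at least 2-fold lower in both are coloured, and Pck1 lies alone at the upper right with 6.17 and 6.41.

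A test needs a spread, and the E18.5 pool has no partner. It was therefore assumed to vary like the male and female pools at P1, 2 weeks and 12 weeks, whose differences (sex included) gave the spread in a limma fit with 3 residual degrees of freedom. Of 16720 genes, 1 passed a Benjamini-Hochberg adjusted p of 0.05 (0.00598%), and 2322 (13.9%) had an unadjusted p under 0.05. That gene was Pck1, and the next smallest adjusted p was 0.108. Every other difference is therefore a description of these pools. DESeq2 on the recovered reads called 357 genes, 186 higher and 171 lower.

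Pck1 (GRCm38.p6, chromosome 2, positions 173153073 to 173159274, plus strand), the enzyme that commits oxaloacetate to glucose synthesis in liver and kidney and to glycerol synthesis in fat, rose at birth. Its level was 43.7 normalized counts at E18.5 (52 reads), 3208 in P1 male (3921 reads) and 3800 in P1 female (3443 reads), a mean of 3504 ± 419 (SD, n = 2 pools) at P1. The P1 pools held 73.4 times and 87.0 times the embryonic level, and the log2 difference was 6.29 ± 0.18 (SE; limma adjusted p 0.00012). Pck1 stayed high later, at 6309 and 7038 normalized counts in the 2-week male and female pools and 3318 and 2792 at 12 weeks, so E18.5 was the single low library of the 7. At those later ages the summed liver markers were at 6235 to 43267 normalized counts and the kidney markers at 54.5 to 102.3. The summed markers of adipocytes, which also express Pck1, were 3086, 3041 and 3226, and 30213 to 52302 later. Of these 10 adipocyte markers 3 were at least 2-fold higher and 1 lower in both P1 libraries, with medians of 0.29 and 1.64, Adipoq having 2.52, 11.5 and 142. At E18.5 and P1 the liver sums were 390362, 490322 and 325481 and the kidney sums 1551, 10962 and 2938. The part of liver, kidney and fat in the rise was not tested.

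The 250 bases before the RefSeq start of Pck1 are shown because it is the 1 gene that passed the test (GRCm38.p6, chr2:173152823-173153072, plus strand, 5′ to 3′). Capitals mark TTACGTCA, the variant cAMP response element for which this promoter is a textbook example. That motif was added after the window had been read.
Pck1: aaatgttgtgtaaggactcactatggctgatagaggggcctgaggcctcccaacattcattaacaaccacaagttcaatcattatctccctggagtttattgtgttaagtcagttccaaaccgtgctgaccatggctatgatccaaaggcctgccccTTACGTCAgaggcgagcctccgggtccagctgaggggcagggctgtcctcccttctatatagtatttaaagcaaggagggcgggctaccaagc
The element starts 93 bases before the start site. Searched on both strands of 300-base windows (250 bases before to 50 after the start), TTACGTCA occurred in windows of 0.909% of the 12216 tested genes that have one. The symmetric cAMP response element TGACGTCA, with which it shares ACGTCA, was in windows of 3.3% and not in that of Pck1.

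The list of glucose production and fasting, which includes Pck1, stood mostly higher at P1. Of its 15 tested members (of 16), 10 were higher in both P1 libraries (40.5% of all tested genes) and 4 lower (34.1%). Pck1 was among the 4 members at least 2-fold higher (2.91% of all tested genes), and none was 2-fold lower. The median was 0.64 in P1 male and 0.62 in P1 female. G6pc, the last enzyme of glucose release, had 203 normalized counts in the embryonic pool, 1886 in P1 male and 948 in P1 female. Tat, the glucocorticoid-inducible tyrosine aminotransferase that feeds amino acid carbon to glucose, had 29.4, 514 and 501. Ppargc1a, a coactivator of mitochondrial and gluconeogenic genes, had 135, 489 and 374. For these 3 genes both P1 pools lay far above the embryonic pool and, on the log2 scale, closer to each other than to it. The limma adjusted p-values were 0.195 to 0.196. Liver and kidney express G6pc and Tat strongly. The summed kidney markers were 1551, 10962 and 2938 and the liver markers 390362, 490322 and 325481, and their part in these values was not tested. Their later courses differed. Ppargc1a stood at 564 and 579 normalized counts at 2 weeks, while G6pc was at 4.19 and 7.92 and Tat at 2.8 and 0 in the 12-week male and female pools. Irs2, an adaptor of the insulin receptor, had 343, 624 and 702 normalized counts in E18.5, P1 male and P1 female, and Foxo1, the factor that insulin holds out of the nucleus, 733, 967 and 1130. Pck2, the mitochondrial isoenzyme of Pck1, had 603, 592 and 597. Opposite to the list, Pcx, which makes oxaloacetate from pyruvate, had 12890, 9684 and 6270, and Got1, the cytosolic aspartate aminotransferase, 5268, 3087 and 1118.

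**Figure D2:**
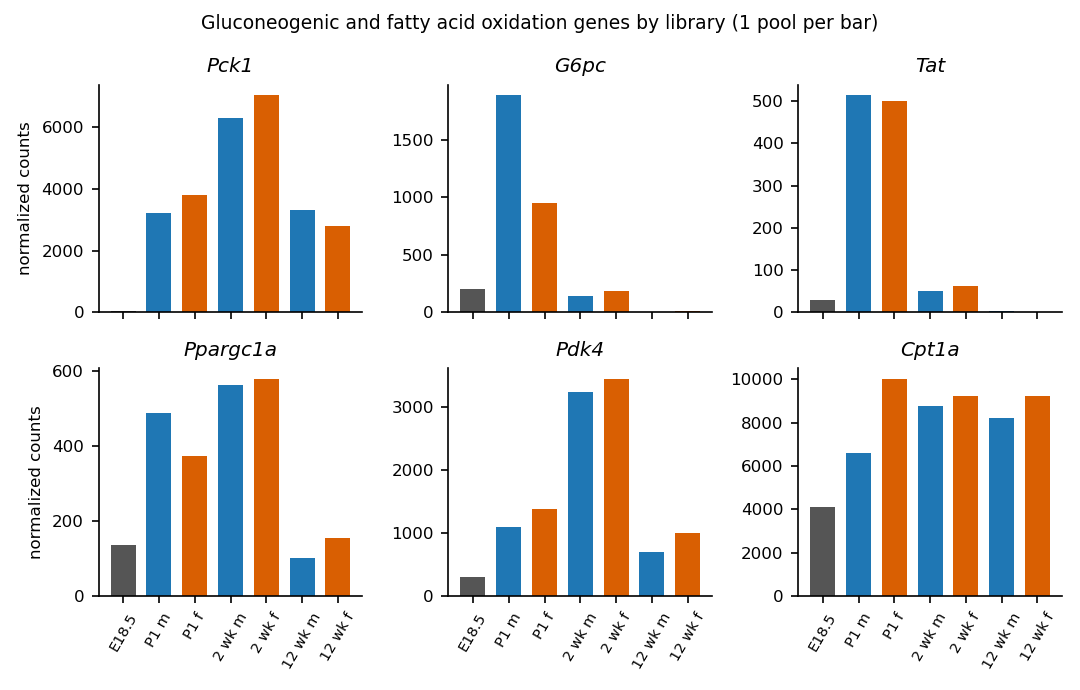
Normalized counts (vertical axes, each from 0) of 6 genes in the 7 libraries, 1 pool per bar, grey for E18.5, blue for male (m) and orange for female (f). Pck1 goes from 43.7 at E18.5 to 3208 and 3800 at P1 and is at 2792 or more later, whereas G6pc and Tat are high at P1 only.

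Genes of fat use showed the same direction. Of 24 tested members (of 26) of the fatty acid oxidation and ketogenesis list, 17 were higher in both P1 libraries (40.5% of all tested genes) and 4 lower (34.1%). At least 2-fold higher were 6 (2.91% of all tested genes) and none was 2-fold lower, with medians of 0.35 in P1 male and 0.90 in P1 female. Pdk4, the kinase that shuts pyruvate out of the mitochondrial oxidation of glucose, had 305 normalized counts in the embryonic pool, 1096 in P1 male and 1381 in P1 female (log2 difference 1.84 and 2.18, limma adjusted p 0.131). Cpt1a, which brings long-chain fatty acids into mitochondria, had 4080, 6612 and 10010, and Cd36, a fatty acid transporter, 2218, 3685 and 4362. Both stayed at or above their P1 male level at 2 and 12 weeks. Angptl4, a lipoprotein lipase inhibitor induced by fasting, had 468, 985 and 1329. The acyl-CoA thioesterases Acot1 (71.4, 160 and 285) and Acot2 (96.6, 214 and 313) and the peroxisomal enzyme Ehhadh (192, 462 and 1599) completed the genes beyond 2-fold, with Cyp4a14, a fatty acid omega-hydroxylase, at 43.7, 482 and 4711. P1 female was the higher pool in all of these, and for Ehhadh the gap between the P1 pools was larger than the smaller difference from E18.5. Acadm, the medium-chain dehydrogenase, went the other way with 9175, 6152 and 4550.

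The 12 genes highest at P1 by the smaller of their 2 differences, among those with at least 100 normalized counts in both P1 libraries, were all protein coding. After Pck1 and Tat came Cyp3a44, Apoa5, Cyp4a14, Apoa4, Aadat, Ankrd2, Slc25a47, Abra, Myh2 and Cyp4a31. Apoa5, a plasma regulator of triglyceride breakdown made in liver, had 43.7 normalized counts in the embryonic pool, 553 in P1 male and 1042 in P1 female. Apoa4, an apolipoprotein of intestine and liver, had 54.6, 552 and 3276, and Cyp3a44, a hepatic cytochrome P450, had 23.5, 349 and 479. All 3 were at 0 to 1.4 normalized counts at 12 weeks. The summed liver markers were above E18.5 in P1 male and below it in P1 female. The part of liver transcripts in these genes was not tested. Ankrd2, Abra and Myh2 are genes of striated muscle, and Myh2 had 134, 803 and 2981 normalized counts. Of the 14 skeletal muscle markers 13 were higher in both P1 libraries and 7 at least 2-fold, among them Acta1 with 7837, 18890 and 34072, and the part of muscle in the counts of these genes was not tested either.

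Most genes of cholesterol synthesis were lower at P1. Of the 20 genes of the list, all tested, 19 were lower in both P1 libraries (34.1% of all genes were) and none higher, with medians of -0.66 and -0.81. For 14 of these 19 the smaller difference exceeded the gap between the P1 pools. Among all genes with the same direction in both P1 libraries this held for 6742 of 12477. An unadjusted limma p under 0.05 was found for 12 of the 20 (13.9% of all), and 3 were at least 2-fold lower (2.24% of all). Among these, Idi1, which isomerises the isoprenoid unit, had 348 normalized counts in the embryonic pool, 135 in P1 male and 118 in P1 female (limma adjusted p 0.204), and Sqle, the epoxidase that opens the sterol branch, had 1545, 761 and 580. In both genes the P1 pools lay well below the embryonic pool and nearer to each other than to it. The 7 cortical markers were lower in both P1 libraries as well, with medians of -0.42 and -0.77, and the summed muscle markers were 125128, 219940 and 367354. The part of cortical and muscle content in the cholesterol values was not tested.

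Other steps were lower in both P1 pools too. Hmgcs1, an early step of the pathway, had 6372, 3956 and 4745 normalized counts. Lss, which closes the sterol ring, had 1306, 663 and 491, Cyp51, which removes a methyl group from the ring, 1997, 1253 and 980, Msmo1, which acts after it, 1851, 953 and 861, and Sc5d, a late desaturase, 1603, 860 and 928. In Fdps (3864, 2627 and 934) and Dhcr7 (6742, 5043 and 2222) P1 female was much lower than P1 male. At 2 weeks Hmgcs1 (7291 and 8880) and Msmo1 (1860 and 2882) were above their E18.5 levels, and Sqle (690 and 784) was not.

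**Figure D3:**
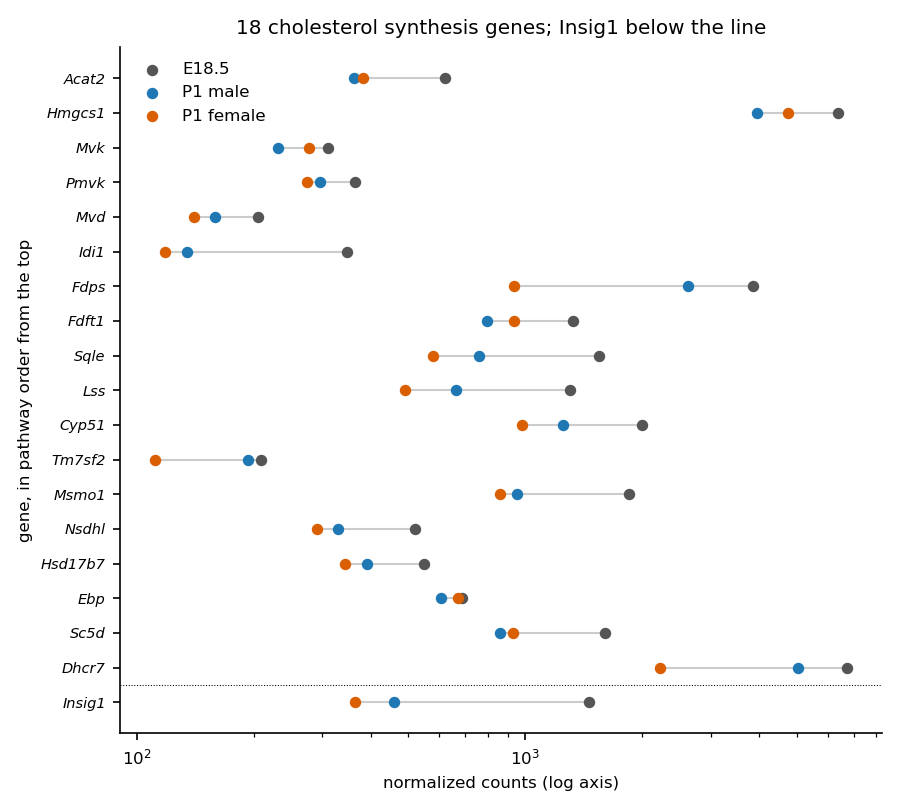
Normalized counts (log axis) of 18 cholesterol synthesis genes in pathway order, and of Insig1 below the line, with 1 point each for E18.5 (grey), P1 male (blue) and P1 female (orange). The grey point is the rightmost in each row shown; 2 of the 20 members are not shown, and of all 20, 19 were lower in both P1 pools.

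The sensors and outlets of the pathway included larger differences. Of 18 uptake, storage and SREBP control genes 5 were higher in both P1 libraries and 7 lower, with medians of -0.01 and -0.12. Insig1, which holds the SREBP complex in the endoplasmic reticulum and is itself a target of SREBP, was among the 3 members at least 2-fold lower, with 1461 normalized counts in the embryonic pool, 460 in P1 male and 365 in P1 female (limma adjusted p 0.195). Mylip, an LXR-induced ubiquitin ligase, was higher with 333, 535 and 709. Apoe, the apolipoprotein of macrophages and steroidogenic cells, was the 1 gene at least 2-fold higher, with 7781, 16386 and 23392. Srebf2 itself had 1426, 1323 and 1230 and Scap 2466, 2580 and 2694. Scarb1, the receptor for high-density lipoprotein, had 73113 and 48325 in E18.5 and P1 male and 8997 in P1 female, a gap between the P1 pools larger than the difference of P1 male from E18.5.

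Promoters are shown for 2 of these genes because the members lay on the same side. Idi1 had the largest smaller difference of the list, and Hmgcs1 was the 1 member with the sterol response element TCACNCCAC. The 250 bases before the RefSeq start are given 5′ to 3′ (GRCm38.p6, plus strand), chr13:8885356-8885605 for Idi1 and chr13:119690101-119690350 for Hmgcs1, with capitals for TCACNCCAC and for the CCAAT box, CCAAT, or its reverse complement.
Idi1: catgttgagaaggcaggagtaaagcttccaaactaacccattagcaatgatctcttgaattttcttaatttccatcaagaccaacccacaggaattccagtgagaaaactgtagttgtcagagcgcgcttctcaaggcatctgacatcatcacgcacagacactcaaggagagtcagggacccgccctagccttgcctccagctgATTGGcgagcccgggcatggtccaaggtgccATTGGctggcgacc
Hmgcs1: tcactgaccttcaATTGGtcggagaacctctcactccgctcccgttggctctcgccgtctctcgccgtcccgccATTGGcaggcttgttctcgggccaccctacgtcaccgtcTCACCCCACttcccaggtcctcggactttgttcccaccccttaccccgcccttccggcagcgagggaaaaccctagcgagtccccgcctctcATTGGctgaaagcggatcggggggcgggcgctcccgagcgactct
Idi1 has CCAAT boxes starting 45 and 14 bases before the start site, and Hmgcs1 has them 237, 176 and 45 bases before it with the sterol response element at 137. In 300-base windows read on both strands, a CCAAT box was found for 14 of the 15 list members with a window (93.3%), and for 42.3% of the tested genes with a window. The sterol response element was found for 1 of the 15 (6.67%) and for 1.46% of the tested genes, and the cAMP response element TGACGTCA for none and 3.3%. These are matches of letters and say nothing about binding. The other 5 members were not searched.

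The enzymes of steroid synthesis were lower too, though mostly by less than the P1 pools differed. Of 10 genes, 8 were lower in both P1 libraries and 1 higher, with medians of -0.30 in P1 male and -0.83 in P1 female, and for 1 of the 10 (Por) the smaller difference exceeded the gap between the P1 pools. Star, which carries cholesterol into mitochondria, had 163043 normalized counts in the embryonic pool, 97447 in P1 male and 47002 in P1 female. Cyp11a1, which cuts the side chain to make pregnenolone, had 74293, 50055 and 21943, and Cyp11b1, the last step to corticosterone, 115414, 79639 and 39931. Fdx1, the electron donor of the mitochondrial P450s, was the 1 member at least 2-fold lower, with 9954, 4929 and 1364. In each, P1 male lay between E18.5 and P1 female. Hsd3b1 (92484, 68986 and 82840) and Cyp21a1 (79899, 70751 and 46985) differed less. The summed counts of the 7 cortical markers were 537915, 377136 and 247747, and were 508252 and 513272 at 2 weeks and 839597 and 1118688 at 12 weeks. The summed muscle markers were highest in the pool with the lowest cortical sum, and their part in the cortical values was not tested. Alas1, the first enzyme of haem synthesis for P450 enzymes, was chosen after its values were seen. It had 18260, 5911 and 4819, with P1 pools near each other, and 15603 to 25505 later.

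Of 19 genes of ACTH signalling and cortical regulation 8 were higher in both P1 libraries (40.5% of all tested genes) and 7 lower (34.1%). The medians were -0.01 and 0.11, and 2 members were at least 2-fold lower (2.24% of all tested genes). Mc2r, the ACTH receptor, had 5639, 4931 and 4247 normalized counts, and Mrap, which escorts it to the membrane, 11176, 6150 and 3537. Prkar2b, a regulatory subunit of protein kinase A, had 9919, 4329 and 2233, and Crem, whose short form is a cAMP-induced repressor, had 928, 418 and 337 (limma adjusted p 0.133). These last 2 were the members at least 2-fold lower. The cAMP phosphodiesterase Pde8a had 1007, 704 and 612. Among transcription factors of the cortex, Nr5a1, the master regulator of steroidogenic genes, had 7143, 5329 and 4798, Nr0b1, its repressor, 155, 225 and 251, and Wt1, of the adrenal primordium and the capsule, 314, 579 and 689. In Wt1 both P1 pools were the highest of the 7 libraries.

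Within the fetal cortex list, the 6 genes split evenly, 3 higher and 3 lower in both P1 libraries. Akr1c18, the progesterone-metabolising enzyme that marks the X-zone, had 283 normalized counts in the embryonic pool, 811 in P1 male and 827 in P1 female, and 26949 in the 2-week female pool. Thrb, the thyroid hormone receptor expressed there, had 585, 821 and 968. Cyp17a1, which the mouse adrenal expresses before birth, had 336, 85.1 and 33.1, and Akr1b7, an aldose reductase-like enzyme of the cortex, 106039, 44186 and 6535. The medians of the list (0.08 and 0.06) thus cover members that differed in opposite directions. Ren1, the gene of renin, which the fetal adrenal also makes, was chosen after its values were seen and had 15068, 3478 and 398. The gap between its P1 pools (3.12 on the log2 scale) exceeded the smaller difference from E18.5 (-2.11). Of the 11 kidney markers 10 were higher in both P1 libraries, and the part of kidney in the Ren1 values was not tested.

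Genes of the zona glomerulosa, capsule and progenitors mostly differed little. Of 18, 9 were higher in both P1 libraries and 4 lower, none by 2-fold in both, with medians of 0.08 and 0.52. Cyp11b2, the aldosterone synthase, had 2323, 818 and 1913 normalized counts, the male pool being the low one. Rspo3, the capsular signal that sustains Wnt activity beneath it, had 405, 580 and 1166, Axin2, a Wnt target, 590, 688 and 1107, and Nr2f2, of capsular and stromal cells, 1665, 2254 and 3137. In these 3 genes E18.5 was lowest and P1 female highest.

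Genes that respond to low oxygen were lower or mixed and in no case higher in both P1 libraries. Of 23 tested (of 24), 15 were lower in both and 8 differed in direction, with medians of -0.20 in P1 male and -0.66 in P1 female. The 4 members at least 2-fold lower were Ankrd37 (35.3 normalized counts in the embryonic pool, 9 in P1 male and 9.93 in P1 female), a short HIF target, Hk2, a hexokinase (939, 448 and 422), P4ha1, a collagen prolyl hydroxylase (2255, 1030 and 1083), and Slc16a3, the lactate exporter (1070, 472 and 212). In Hk2 and P4ha1 the P1 pools were almost equal (limma adjusted p 0.223 and 0.134). Vegfa, the endothelial growth factor, had 2640, 1574 and 1628, Slc2a1, the glucose transporter, 1113, 716 and 463, and Egln3, the oxygen-sensing hydroxylase, 557, 314 and 215. The glycolytic enzymes were pool-dependent, Eno1 having 12014, 12385 and 4013 and Ldha 10808, 9205 and 4592. Hif3a, a HIF subunit fixed in the glucocorticoid list, had 1953, 677 and 594 (adjusted p 0.171) and was at 62.9 and 78.1 at 12 weeks.

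Among 18 glucocorticoid-responsive genes 11 were higher in both P1 libraries and 4 lower, with medians of 0.35 and 0.21. Bcl6, a transcriptional repressor, was the 1 member at least 2-fold higher, with 118, 362 and 433 normalized counts (limma adjusted p 0.131), and Hif3a, given above, the 1 member at least 2-fold lower. The standard reporters of receptor activity differed little, Fkbp5 having 2139, 1912 and 1679 and Tsc22d3 1543, 1632 and 1305. The metallothioneins Mt1 (768, 1406 and 1828) and Mt2 (238, 453 and 413), which bind zinc and answer to glucocorticoid, were higher in both, as was the secreted peroxidase Gpx3 (525, 1215 and 1549). Over all 22 antioxidant and metallothionein genes 8 were higher and 10 lower, with medians of -0.05 and -0.11. Srxn1, which repairs peroxiredoxins, had 5100, 2630 and 871, and Prdx3, the mitochondrial peroxiredoxin, 7290, 5213 and 2813. Of 16 genes of the ATF4 amino acid response 4 were higher and 5 lower, none by 2-fold, with medians of 0.15 and -0.08.

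Of 18 clock genes 8 were higher in both P1 libraries (40.5% of all tested genes) and 6 lower (34.1%). At least 2-fold higher were 2 (2.91% of all tested genes), and the medians were -0.14 and 0.54. Nr1d1, the repressor that oscillates against Arntl, had 197 normalized counts in the embryonic pool, 579 in P1 male and 726 in P1 female (limma adjusted p 0.108), and Nr1d2, its relative, 628, 1227 and 1676. Dbp, an output factor of the clock, had 78.1, 210 and 581. Arntl had 1429, 988 and 981, Per2 1180, 550 and 734, and Bhlhe40, which represses Clock and Arntl activity, 1764, 651 and 903. The time of day at which the glands were taken is not given in the sources used here. Immediate early genes, which answer to handling and stress within minutes, were higher in 11 of 18 and lower in 3, with medians of 0.16 and 0.73. Egr1 had 224, 287 and 846 and Nr4a1 1275, 338 and 985. In both genes the gap between the P1 pools was larger than the smaller difference from E18.5.

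Of 14 cold-inducible and heat shock genes 3 were higher in both P1 libraries and 8 lower, with medians of -0.29 and -0.08, and 1 was at least 2-fold higher. Cirbp, the cold-inducible RNA-binding protein, had 325 normalized counts in the embryonic pool, 1243 in P1 male and 807 in P1 female, and Rbm3, its close relative, 2006, 3631 and 4602. The chaperones Hsp90aa1 (14154, 9447 and 9056) and Hspd1 (29740, 16838 and 11561) were lower in both.

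Growth-related genes showed smaller differences. Of 26 cell cycle genes 19 were lower in both P1 libraries and 1 higher, none by 2-fold, with medians of -0.28 and -0.17, and Mki67 had 16749, 14590 and 15573 normalized counts. Of 15 imprinted growth genes 7 were higher and 5 lower, with medians of -0.01 and 0.16. Igf2, the fetal growth factor, had 22913, 35815 and 40516, and H19, the noncoding RNA of the same locus, 51600, 73523 and 97535. At 2 weeks Igf2 was at 998 and 1727 and H19 at 1946 and 4388. Igf2r, which clears the factor, had 15853, 10654 and 10878. Meg3, a maternally expressed noncoding RNA, was the 1 member at least 2-fold lower, with 6512, 2213 and 2255, and its neighbours Rian (11851, 6543 and 5118) and Mirg (261, 125 and 121), chosen after their values were seen, were lower as well. The 9 tested fetal growth regulators (of 10) had 3 higher and 5 lower, with medians of -0.10 and -0.31. Of 20 matrix genes 15 were higher and 1 lower, with medians of 0.32 and 0.37, among them Fn1 (29615, 37090 and 45976) and Mmp2 (1622, 2481 and 2736), none by 2-fold.

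Mitochondrial genes gave no common direction. The 21 nuclear-encoded subunits had 3 higher and 10 lower, with medians of 0.00 and -0.21, and the 13 mitochondrially encoded genes 6 higher and 3 lower, with medians of 0.18 and -0.08. ATP8 was the 1 of these at least 2-fold lower, at 24.4, 9.82 and 9.93 normalized counts (limma adjusted p 0.488). The 13 genes together had 1025926, 1187113 and 1060312, and the part of low counts in the ATP8 difference was not tested. The 14 interferon genes had 3 higher and 6 lower, with medians of 0.21 and -0.46.

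**Figure D4:**
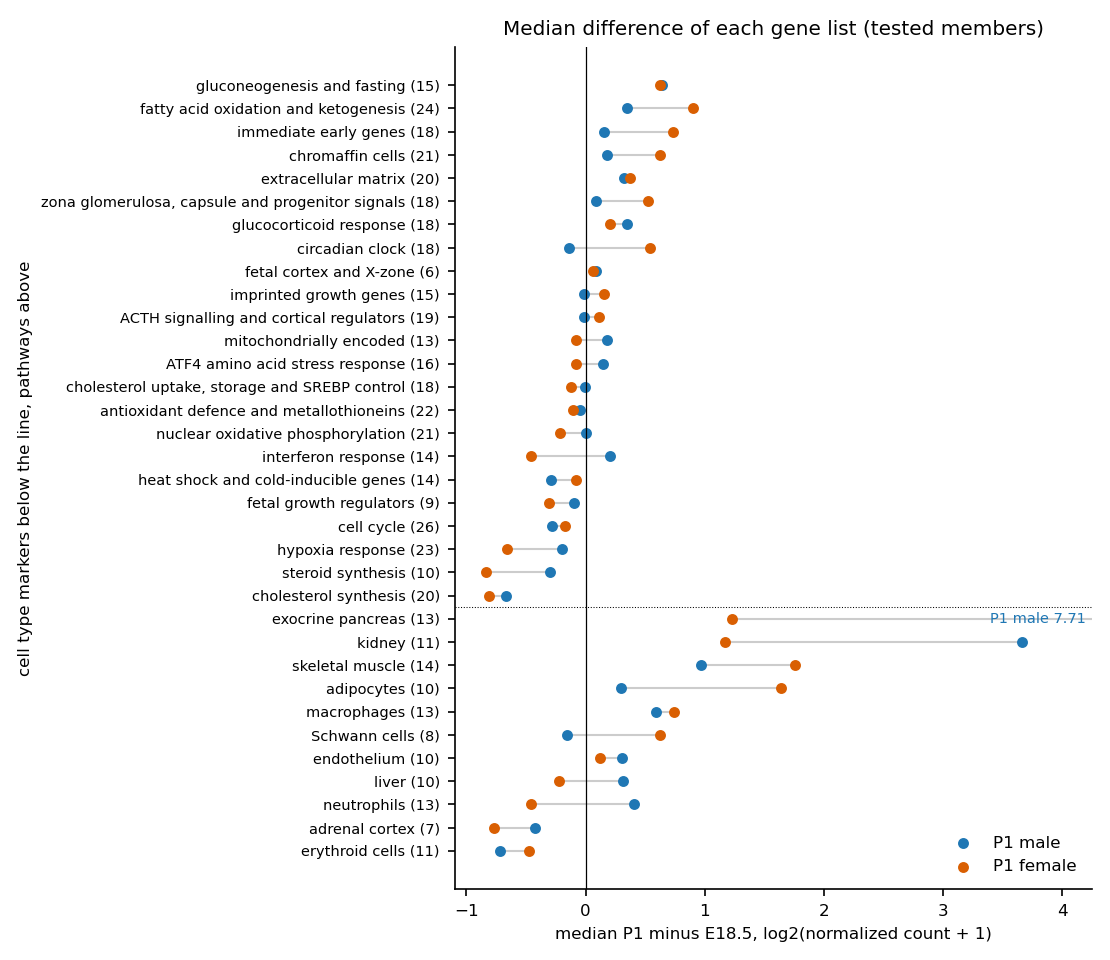
Median P1 minus E18.5 difference in log2(normalized count + 1) over the tested members (number in brackets) of each list, P1 male in blue and P1 female in orange, cell type markers below the dotted line and pathways above it. Both points of the cholesterol synthesis list lie below -0.6 and both of the gluconeogenesis list above 0.6, while the exocrine pancreas point of P1 male, at 7.71, lies beyond the axis.

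The medulla and the other cell types were compared through their markers. Of 21 chromaffin genes 15 were higher in both P1 libraries and 4 lower, none by 2-fold in both, with medians of 0.18 in P1 male and 0.63 in P1 female. Chga, the main granule protein, had 11227, 14233 and 35941 normalized counts, Npy, a co-released peptide, 2545, 4120 and 7627, and Th, which starts catecholamine synthesis, 5430, 6647 and 6180. Pnmt, which makes adrenaline and depends on glucocorticoid, had 1954, 2378 and 2761. The transporters Slc18a1 (1020, 745 and 767) and Slc18a2 (1019, 813 and 811) were among the 4 lower. Of 13 macrophage markers 12 were higher and none lower, with medians of 0.59 and 0.74, and their sum was 9835, 13569 and 14613. The complement genes C1qa (641, 1173 and 1286) and C1qc (505, 1023 and 970) and Timd4 (40.3, 87.6 and 114), a receptor for dying cells, had the largest of the smaller differences among them. Of 11 tested erythroid markers (of 15) 10 were lower and none higher, with medians of -0.72 and -0.47 and sums over the listed genes of 118433, 66100 and 63790. Hbb-bt had 10407, 3897 and 4779, although reads of near-identical globin genes can be split between them. The defining embryonic globins Hba-x, Hbb-y and Hbb-bh1 did not reach a mean of 10. Of 10 endothelial markers 7 were higher and 2 lower (medians 0.31 and 0.12), and of 8 Schwann cell markers 3 and 1 (medians -0.16 and 0.62). Kidney markers were higher in both P1 libraries in 10 of 11 and pancreas markers in 10 of 13 tested, 7 and 8 of them at least 2-fold. Medians were 3.66 and 7.71 in P1 male against 1.17 and 1.22 in P1 female. The smaller difference exceeded the gap between the P1 pools in 1 kidney marker and 0 pancreas markers. The summed pancreas markers were 888, 10741 and 609, so P1 female lay below E18.5. The liver markers were higher in 3 of 10 and lower in 1, and the neutrophil markers in 2 and 1 of 13. Of 10 adipocyte markers 5 were higher and 2 lower, with medians of 0.29 and 1.64, Adipoq having 2.52, 11.5 and 142.

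The genes at least 2-fold lower at P1 differed from those higher in their gene classes. RefSeq gene classes were matched by symbol for 15750 of the tested genes, of which 14396 were protein coding and 1076 were long noncoding RNAs (lncRNAs), RNAs over a set length that encode no protein. Of the 374 lower genes 152 were lncRNAs, which made up 6.44% of tested genes, and 139 were protein coding. Of the 487 higher genes 433 were protein coding and 25 lncRNAs. Thus 14.1% of lncRNAs and 0.966% of protein-coding genes were at least 2-fold lower, and 2.32% and 3.01% at least 2-fold higher. The classes differed in level. At E18.5 and in P1 male and P1 female, median normalized counts were 29.4, 22.9 and 21.0 for lncRNAs. For protein-coding genes they were 431, 452 and 456. Among the 13670 genes with a mean of at least 50, 61 of the 168 lower genes were lncRNAs. How many of these 13670 were lncRNAs was not counted, so no share of all genes stands beside it. The part of low counts in the contrast was not tested. The median lncRNA difference was -0.34 in P1 male and -0.47 in P1 female, against 0.05 and 0.07 for protein-coding genes. All lncRNAs took 1.87% of the normalized counts before birth, 1.21% in P1 male, 1.19% in P1 female, 1.18% and 1.09% at 2 weeks and 3.24% and 2.71% at 12 weeks. Malat1 alone took 0.882%, 0.361% and 0.281% at E18.5 and in P1 male and P1 female, and without it the lncRNA share was 0.986%, 0.849% and 0.905%. The 38 tested miRNA genes, whose counts in such libraries come from precursors or host transcripts, included 10 at least 2-fold lower and none higher. The lower ones were 26.3% of the class, against 2.24% of all tested genes. Levels of the class were low, with median normalized counts of 18.48 in the embryonic pool, 10.64 in P1 male and 6.62 in P1 female. The part of low counts in the miRNA share was not tested either.

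**Figure D5:**
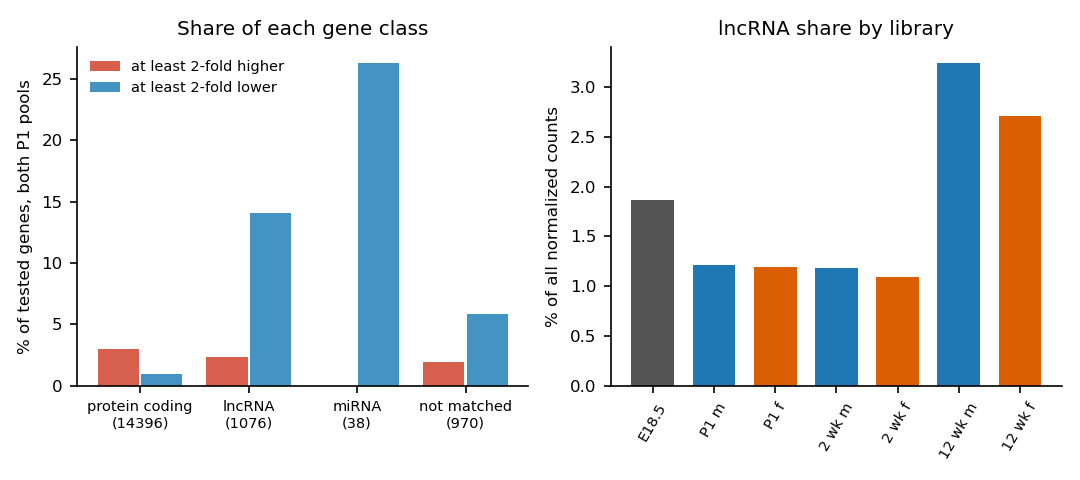
Left, percent of the tested genes of each RefSeq class (number in brackets) at least 2-fold higher (red) or lower (blue) in both P1 pools; right, percent of all normalized counts that lncRNAs take in each library, 1 pool per bar. The lower share is 14.1% for lncRNAs and 0.966% for protein-coding genes, and the lncRNA share of counts, Malat1 included, is 1.87% at E18.5 and 1.21% and 1.19% at P1; without Malat1 it is 0.986%, 0.849% and 0.905%.

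By the same rule as above, with at least 100 normalized counts at E18.5, 7 of the 12 lowest genes at P1 were lncRNAs. They were Gm35280, Gm28382, Gm38585, A530020G20Rik, Gm38684, Miat and Gm32092. The rule asks for a high level at E18.5 only, and the lncRNA share among all genes at that level was not counted. Gm28382 had 819 normalized counts in the embryonic pool, 90.0 in P1 male and 36.4 in P1 female, and A530020G20Rik 1313, 169 and 106 (limma adjusted p 0.108). Gm38585 had 221, 24.6 and 16.6 and was back at 181 and 206 at 2 weeks, so its P1 pools were the low ones of the series. Miat, a nuclear lncRNA of neural tissue, had 416, 72.0 and 59.6 and was at 1.40 and 2.26 at 12 weeks. The protein-coding Slc6a5, a glycine transporter of neurons, had 425, 79.4 and 62.9, and Aqp5, a water channel of secretory glands, 160, 29.5 and 8.83. 1520401A03Rik, and the unmatched symbols 2010109I03Rik and LOC105242408, completed the 12. Several rested on few reads in P1 female, with 1 in 1520401A03Rik, 4 in 2010109I03Rik, 7 in Gm35280 and 8 each in Aqp5 and Gm32092. Whether the counting used the strand is not given in the sources used here, so reads of overlapping or antisense genes may be included in such names.

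Abundant nuclear RNAs were chosen after their values were seen, so their direction is no independent result. Malat1, which sits in nuclear speckles, had 169602 normalized counts in the embryonic pool, 69614 in P1 male and 57267 in P1 female, with 125664 and 102492 in the 2-week male and female pools and 526125 and 427350 at 12 weeks. Neat1, the scaffold of paraspeckles, had 4711, 2477 and 817. It was not 2-fold lower in P1 male (log2 difference -0.93), and the gap between its P1 pools (1.60) exceeded that difference. A further 4 genes chosen in that way were protein coding and lower in both P1 pools. They were Ccnl2 with 1515, 567 and 502, Rsrp1 with 1296, 367 and 486, Srek1 with 2222, 1043 and 995, and Ogt with 4204, 1623 and 1826. In these 4 the P1 pools were the lowest of all 7 libraries.

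A few protein-coding genes outside the lists had P1 pools close together and the highest levels of the 7 libraries, and were chosen after their values were seen. Ezr, which links membrane and actin, had 665 normalized counts in the embryonic pool, 2072 in P1 male and 1814 in P1 female. Vgf, a secretory peptide precursor of endocrine and nerve cells, had 39.5, 229 and 254, and Fbxo32, a ubiquitin ligase of muscle wasting, 153, 489 and 543. At 2 and 12 weeks Ezr was at 396 to 680 and Vgf at 24.9 to 107.6.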

How the data were processed

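Adrenal RNA was extracted with guanidinium thiocyanate and sequenced from standard Illumina libraries, all in the same run and lane per the labels. The submitters' processing notes name CASAVA 1.8.2, HISAT2 2.1.0, HTSeq 0.9.1, DESeq2 2.11.40.6 and the build mm10. The annotation and the use of strand are not given in the sources used here. The authors deposited 1 table of normalized counts, a signal that the values show to be whole reads divided by 1 size factor per library: 100.0% of values came out whole within 0.1 read. Reads were recovered on that basis, and the count test on them called 1 gene in edgeR and 357 in DESeq2.

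Genes with a mean of at least 10 were tested with limma 3.58.1 in R 4.3.3 (log2 of the value + 1, 1 mean per age over 7 libraries, eBayes with a trend, two-sided, Benjamini-Hochberg over all 16720 genes, threshold 0.05). The scale understates changes of genes with low counts. Alternatives used edgeR 4.0.16 and DESeq2 1.42.0, and the fits were tested on simulated data. Where nothing says that pools are separate samples of one population, p-values measure only the spread between these pools. The members, the gene lists and the tests were chosen with earlier results of these data known. Named genes are list members, and the 12 highest and 12 lowest by the smaller of the 2 differences with at least 100 normalized counts in both P1 libraries (highest) or at E18.5 (lowest). List members under the mean of 10 (Sds, Cpt1b, Fgf21, Car9, Lin28a, Pnlip and the embryonic globins) were not tested, and Ahsp was not used here. Gene classes, coordinates and promoter sequences are from RefSeq tables for GRCm38.p6, the assembly that mm10 represents. Python 3 scripts made the tables and figures. For promoters, no cholesterol synthesis gene passed the test, so the windows of its 15 members that have one in the table were searched. Values of some single list members are not reported here.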

Additional observations from a re-analysis of the deposited data

Results flagged for a closer look

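For 4 lists the median difference from E18.5 had opposite signs in the 2 P1 libraries, by at least 0.2 on the log2 scale in each. The difference between the libraries was not tested, since each is 1 pool. The interferon response list had a median of 0.21 in P1 male and -0.46 in P1 female, the neutrophil markers 0.41 and -0.46, and the liver markers 0.32 and -0.23. The 4 Y-linked genes had 0.43 and -1.77, against an E18.5 pool whose sex was not determined.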

How the results depend on the processing

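Pck1 was the 1 gene called under both other pseudocounts, the stricter filter, both other scalings, the fits on E18.5 and P1 alone and without both 12-week libraries, edgeR, and sex as a replicate block, which changed no call. With every gene above a mean of 0 the count was 0 (Pck1 adjusted p 0.05004, with 3795 genes at an unadjusted p under 0.05), and without a trend it was 2, both higher. DESeq2 called 357, 186 higher and 171 lower. Leaving out 1 library gave 1 to 2 calls, 1 to 2 higher and 0 lower, the second without P1 male being Cfd. The 861 genes at least 2-fold apart became 2157 at a mean above 0, 411 at a mean of at least 50, 2402 at a fold limit of 1.5 and 112 at 4. The 487 higher became 1039, 243, 1357 and 78, and the 374 lower 1118, 168, 1045 and 34. With 1 P1 library only, they were 1405 to 2200, 819 to 1177 and 586 to 1023, the upper value being without P1 male. The 152 lncRNAs became 544 at a mean above 0 and 61 at a mean of at least 50, and 209 to 320 with 1 P1 library; these alternatives were chosen after seeing the data. Of 511 tested list members 54 changed the sign of the fitted difference without P1 male and 68 without P1 female, 26 under upper-quartile scaling, 19 under equal totals, 12 in edgeR and 5 in DESeq2. Of 35 list medians 14 changed sign in at least 1 alternative, and those of cholesterol synthesis, gluconeogenesis, fatty acid oxidation and hypoxia in none. The single E18.5 pool limits the precision of every difference.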
